A study of Mus musculus with 5 samples.

Results

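The genes described here are 9 mouse CC chemokine receptor genes, Ccr1, Ccr2, Ccr3, Ccr4, Ccr6, Ccr7, Ccr8, Ccr9 and Ccr10. They were picked by symbol, and they are 9 of the 49927 gene IDs in the deposited tables. Of these, 6 lie on chromosome 9, Ccr6 lies on chromosome 17, and Ccr7 and Ccr10 lie on chromosome 11. Other CC receptor genes were not analysed here. The data are RNA sequencing of regulatory T cells (Tregs), the CD4 T cells that depend on the transcription factor Foxp3 and restrain immune responses, sorted from C57BL/6 mice. There were 5 libraries, 1 per group, so that no comparison has a replicate check and no p-value is given. Neither the number of mice per library nor the sorting gate is given in these sources.

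The first group came from adipose tissue of 10-month-old Med23fl/fl;Foxp3Cre mice, in which Cre under Foxp3 control is meant to delete Med23, a subunit of the Mediator complex, in Foxp3-expressing cells. It is set against adipose tissue of 10-month-old Foxp3Cre mice. The 3 remaining groups were 4-month-old Foxp3Cre mice. They gave Tregs from adipose tissue of obese mice, which the sample title ties to a high-fat diet, from adipose tissue of mice for which the labels name no obesity, called lean here, and from lymph nodes (LN). All 5 groups carried Foxp3Cre, so no group without the Cre allele is compared here.

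CC chemokine receptors are G protein-coupled receptors that sense gradients of CC chemokine ligands and steer leukocytes through Gi proteins, beta-arrestins and PI3K-gamma. Ccr7, which binds Ccl19 and Ccl21, leads naive and central memory T cells into lymph nodes. Ccr4 and Ccr8 mark activated and tissue-homing Tregs, whereas Ccr1, Ccr2 and Ccr3 are better known from monocytes, macrophages and eosinophils and are also found on Tregs of visceral fat. Ccr6, the receptor of Ccl20, belongs to B cells and Th17-type cells, while Ccr9 and Ccr10 serve homing to the small intestine and to skin and mucosal surfaces.

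Promoter sequences are shown for Ccr1, Ccr3 and Ccr2, because these genes lie close together on chromosome 9 and were all far lower in 2 of the 5 libraries. Each window covers 250 bases before and 50 bases after the RefSeq start of the gene in build GRCm38.p6, read 5′ to 3′ on the gene's strand, with motif matches in capitals. The windows are chr9:123968643-123968942 on the minus strand for Ccr1, chr9:124021721-124022020 on the plus strand for Ccr3 and chr9:124101933-124102232 on the plus strand for Ccr2.
Ccr1: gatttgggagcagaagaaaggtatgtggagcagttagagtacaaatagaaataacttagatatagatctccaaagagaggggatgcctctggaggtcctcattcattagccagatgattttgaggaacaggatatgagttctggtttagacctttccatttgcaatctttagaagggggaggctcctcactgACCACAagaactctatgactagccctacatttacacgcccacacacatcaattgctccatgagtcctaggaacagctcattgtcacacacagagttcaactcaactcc
Ccr3: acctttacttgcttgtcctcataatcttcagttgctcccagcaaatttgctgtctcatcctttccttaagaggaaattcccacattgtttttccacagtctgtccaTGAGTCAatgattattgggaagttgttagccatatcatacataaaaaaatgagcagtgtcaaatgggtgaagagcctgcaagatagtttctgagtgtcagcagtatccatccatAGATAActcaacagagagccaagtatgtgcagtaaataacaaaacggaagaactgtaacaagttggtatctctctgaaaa
Ccr2: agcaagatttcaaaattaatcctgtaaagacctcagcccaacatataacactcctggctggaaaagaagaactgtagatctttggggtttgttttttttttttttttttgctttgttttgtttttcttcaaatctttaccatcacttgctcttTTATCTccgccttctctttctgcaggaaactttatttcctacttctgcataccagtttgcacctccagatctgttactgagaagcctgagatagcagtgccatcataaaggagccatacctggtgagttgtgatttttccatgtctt

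The search covered both strands for 6 motifs, with N for any base. They were AGATAA for GATA factors, TGANTCA for AP-1 factors, TTCNNNGAA for STAT factors, TGTGGT for RUNX factors, CCGGAA for ETS factors and the interferon-stimulated response element, ISRE. Of the 9 genes, 7 had a window, and Ccr6 had 2. The Ccr1 window held a RUNX match that began 58 bases before the start, on the opposite strand to the one shown. The Ccr3 window held an AP-1 match from 144 bases and a GATA match from 30 bases before the start, and the Ccr2 window held a GATA match from 97 bases before it, on the opposite strand. No motif was common to all 3 windows. Beyond them, the Ccr4 window held an AP-1 match, the Ccr8 window held a GATA match, the 2 Ccr6 windows together held 2 STAT, 1 RUNX and 1 GATA match, and the Ccr9 window held none. No matches overlapped. Among all 32851 windows, GATA was found in 11.2%, AP-1 in 7.81%, STAT in 8.30%, RUNX in 16.8%, ETS in 14.9% and ISRE in 3.44%. A match describes the letters only and is no evidence of binding.

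The libraries held 4595046 reads for the library labelled Med23 KO, 9650769 for 10-month Foxp3Cre, 7496496 for obese adipose, 8540594 for lean adipose and 9694474 for LN. Levels are given in CPM, reads scaled to a sum of 1000000 per library, and carry exact 95% counting intervals, which cover counting error alone and not the spread between mice. Med23 did not follow its label. The library labelled Med23 KO had 13.9 scaled counts of it (71 reads), against 7.02 (61 reads) in 10-month Foxp3Cre, and a count over a whole gene cannot speak to single floxed exons. In CPM these were 15.5 and 6.32, against 33.3 in obese adipose, 46.8 in lean adipose and 6.40 in LN. Directions drawn from the library labelled Med23 KO therefore rest on its label. Foxp3 was at 155, 185, 180 and 216 CPM in the libraries labelled Med23 KO, 10-month Foxp3Cre, obese adipose and lean adipose, and at 52.5 CPM in LN. Both 4-month adipose libraries stood apart from LN and from the 10-month libraries in further genes. The Y-linked gene Ddx3y was at 562 CPM in obese and 560 CPM in lean adipose, against no reads in LN, and Gapdh was at 10.7 and 1.05 CPM, against 979 CPM in LN. The 10-month libraries had no value for Ddx3y and had Gapdh at 548 and 639 CPM. Xist was at 602 CPM in the library labelled Med23 KO, 440 in 10-month Foxp3Cre, 3.60 in obese adipose, 0 in lean adipose and 228 in LN. In lean and obese adipose over LN, tissue and the Ddx3y, Xist and Gapdh difference cannot be told apart. The comparison of 10-month Foxp3Cre adipose with LN lacks that difference, though age differs there, and it is given beside both 4-month comparisons.

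The 9 receptor genes had different patterns over the 5 libraries. Of the 9, 8 were above 0 in at least 1 library and 5 in every library, and Ccr10 had no value in any table. Their summed level was 536 CPM in the library labelled Med23 KO, 2333 in 10-month Foxp3Cre, 941 in obese adipose, 1085 in lean adipose and 325 in LN. The sum was thus highest in 10-month Foxp3Cre adipose and lowest in LN, with the library labelled Med23 KO next above LN. Summed per kilobase of merged exons, as described below, these places held. Obese adipose, at 448, then lay above lean adipose, at 312. In libraries of RNA from many cells, fewer cells carrying a receptor and less RNA per cell cannot be told apart.

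**Figure D1:**
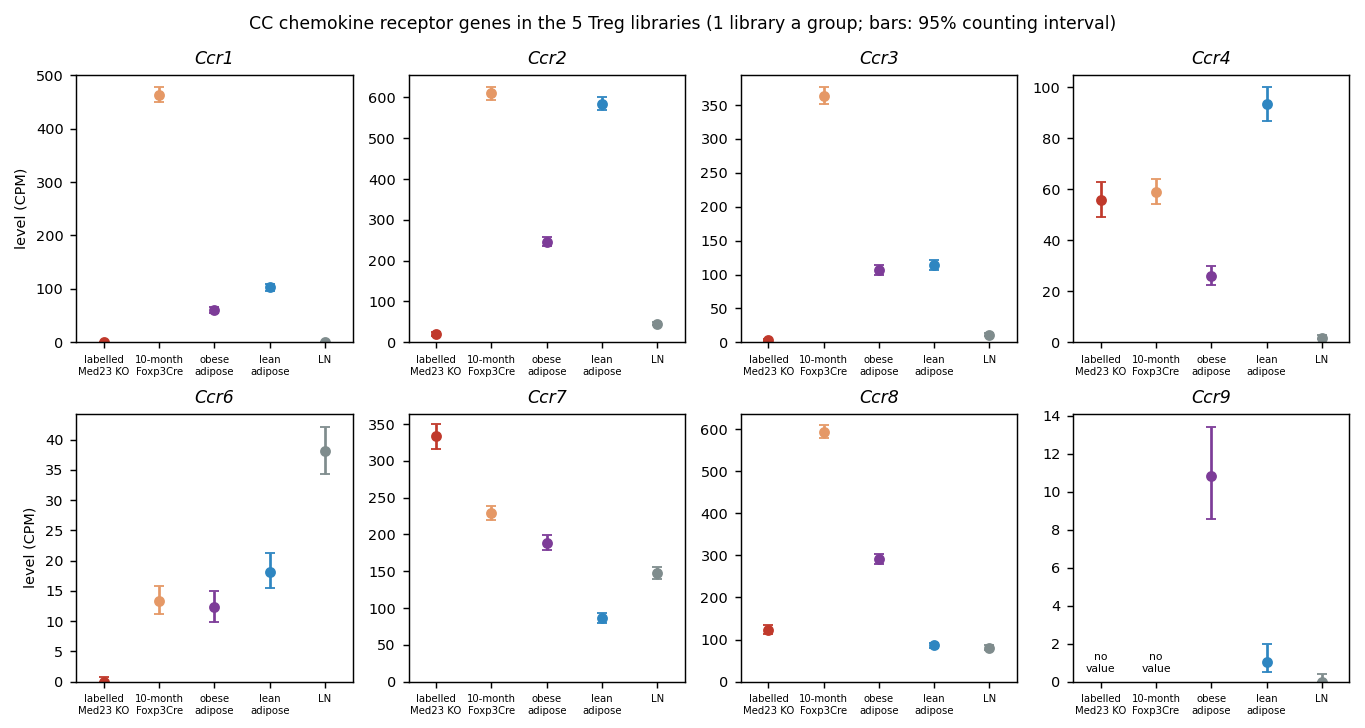
Level of each CC receptor gene in CPM (vertical axis, linear, from 0) in each of the 5 Treg libraries, with 1 point per library and its 95% counting interval. Ccr1, Ccr2 and Ccr3 peak in 10-month Foxp3Cre adipose (463, 610 and 364 CPM) and are lowest in LN and the library labelled Med23 KO, while Ccr6 is highest in LN (38.1 CPM) and Ccr7 in the library labelled Med23 KO (333 CPM).

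Ccr1, a receptor of Ccl3, Ccl5 and related inflammatory ligands, had the widest range as a ratio of its highest to its lowest level. Its level was 0.218 CPM, from 1 read, in the library labelled Med23 KO, 463 CPM in 10-month Foxp3Cre, 59.8 CPM in obese adipose, 102.8 CPM in lean adipose and 0 CPM, from no reads, in LN. No reads in LN allow a level of up to 0.309 CPM. In the order of its levels, only the library labelled Med23 KO and LN had overlapping counting intervals.

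Ccr2, the receptor of Ccl2 and Ccl7 that draws monocytes into tissue, was present in every library. It was at 20.2 CPM in the library labelled Med23 KO, 610 in 10-month Foxp3Cre, 246 in obese adipose, 584 in lean adipose and 46.0 in LN. The 10-month Foxp3Cre and lean adipose intervals, 594 to 626 and 568 to 600.5 CPM, overlapped, and the other neighbours in the order did not. Ccr3, the eotaxin receptor known from eosinophils, was at 3.26 CPM in the library labelled Med23 KO, 364 in 10-month Foxp3Cre, 107 in obese adipose, 114 in lean adipose and 11.0 in LN. Lean and obese adipose could not be ordered by their intervals. Both genes, unlike Ccr1, had reads enough in LN for a fold, and both were lower in the library labelled Med23 KO than in LN.

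Ccr4, a receptor of Ccl17 and Ccl22 on Tregs and Th2 cells, had another order. It was highest in lean adipose, with 93.3 CPM, while the library labelled Med23 KO had 55.7, 10-month Foxp3Cre 59.1, obese adipose 26.0 and LN 1.86 CPM. The 10-month libraries' intervals overlapped. The LN value rests on 18 reads. Ccr8, the Ccl1 receptor of activated Tregs, was at 123 CPM in the library labelled Med23 KO, 594 in 10-month Foxp3Cre, 291 in obese adipose, 86.1 in lean adipose and 80.5 in LN. Lean adipose and LN overlapped, so that Ccr8 set lean adipose apart from the obese and 10-month Foxp3Cre libraries and not from LN.

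Ccr7, the lymph node homing receptor, had the narrowest range, as a ratio of highest to lowest level, among the receptor genes above 0 everywhere. It was at 333 CPM in the library labelled Med23 KO, 229 in 10-month Foxp3Cre, 189 in obese adipose, 86.2 in lean adipose and 147 in LN, and no neighbours in that order overlapped. LN stood above lean adipose only. Ccr6 was the one member with its highest level in LN. It had 0 CPM, from no reads, in the library labelled Med23 KO, 13.4 in 10-month Foxp3Cre, 12.3 in obese adipose, 18.1 in lean adipose and 38.1 in LN, with overlap between lean and 10-month Foxp3Cre and between 10-month Foxp3Cre and obese adipose. Ccr9, the Ccl25 receptor of gut-homing cells, was at 10.8 CPM (81 reads) in obese adipose, 1.05 CPM (9 reads) in lean adipose and 0 in LN, and had no value in the 10-month table.

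Levels of different genes can be set side by side only per length, here per kilobase of merged exons in the GENCODE M21 annotation. On that scale Ccr7 made up 57.1% of the receptors' summed level in the library labelled Med23 KO and Ccr8 another 35.4%. In 10-month Foxp3Cre adipose, Ccr8 held 50.01%, Ccr1 16.2%, Ccr7 11.4% and Ccr3 11.0%. Obese adipose had 55.3% from Ccr8 and 21.3% from Ccr7. Lean adipose was the most even, with 27.7% from Ccr2, 23.5% from Ccr8, 14.0% from Ccr7 and 11.6% from Ccr1. In LN, Ccr7 held 43.8%, Ccr8 40.2% and Ccr6 9.64%. Ccr7 and Ccr8 were thus the leading pair in the library labelled Med23 KO, in obese adipose and in LN. The next gene was Ccr4 in the library labelled Med23 KO, Ccr2 in obese adipose and Ccr6 in LN.

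**Figure D2:**
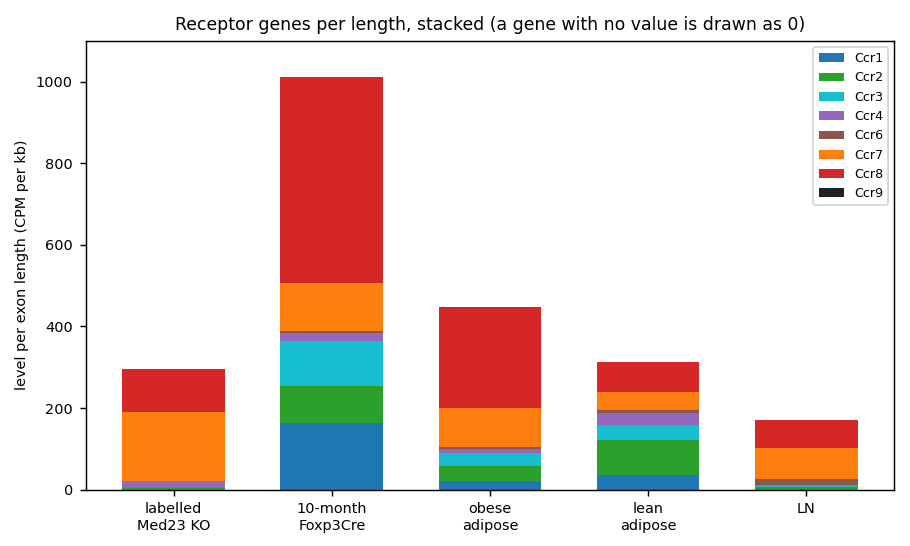
Receptor level per length in CPM per kilobase of merged exons (vertical axis, linear), stacked by gene for each of the 5 libraries. The stack reaches 295 in the library labelled Med23 KO, 1012 in 10-month Foxp3Cre, 448 in obese adipose, 312 in lean adipose and 170 in LN, and Ccr7 and Ccr8 together fill most of it in every library but lean adipose.

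The comparison of adipose with LN asks how the receptor genes of fat Tregs differ from those of lymphoid Tregs. A gene counts as measured here when either library reached a value of 1, and as higher or lower when the ratio reached 2-fold with 1 added to both values. In lean adipose over LN, 8 of the 9 receptor genes were measured, of which 5 were higher, 1 was lower and 2 were within 2-fold. Of all 13541 genes measured, 37.6% were higher, 32.1% lower and 69.7% past 2-fold either way, so that being past 2-fold is common between these libraries. Ccr1, at 97.8 scaled counts in lean adipose and 0 in LN, was at least 301-fold higher in lean adipose, a bound set by 3 reads in LN. Ccr4 was at 88.8 and 1.95 scaled counts, a 45.5-fold higher value in lean adipose (28.6 to 77.3). Ccr2 was 11.5-fold higher (10.4 to 12.7) and Ccr3 9.33-fold higher (7.63 to 11.5). Ccr9 was at least 3.09-fold higher in lean adipose, from 9 reads, and its call was lost with a pseudocount of 5, where its log2 ratio was 0.26, with centring, where it was 0.86, and at 3-fold, and the gene was not measured at a minimum of 5. Ccr6, the one gene below LN by more than 2-fold, was 2.31-fold lower (1.91 to 2.81). Ccr7 was 1.89-fold lower (1.72 to 2.06). Ccr8 was at 0.969 times its LN value (0.875 to 1.07), and in CPM at 1.07 times, so that its side of 1 flipped with the scaling.

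Obese adipose over LN had 8 receptor genes measured, of which 6 were higher, 1 was lower and 1 was within 2-fold. The background was 41.8% higher, 23.7% lower and 65.4% either way, with a median log2 ratio of 0.44 over all genes. Centring on that median left 4612 genes higher, 49.98% of all calls, against 6144 and 63.8% as reported. Ccr1 was at least 172-fold higher in obese adipose, at 56.3 scaled counts against 0 in LN. Ccr4 was 12.4-fold higher (7.67 to 21.4), Ccr3 8.59-fold higher (7.01 to 10.6) and Ccr2 4.75-fold higher (4.28 to 5.28). The interval of Ccr3 overlapped that of lean over LN, while those of Ccr2 did not overlap. Ccr8 was 3.21-fold higher in obese adipose (2.96 to 3.49), Ccr9 was at least 31.0-fold higher, from 81 reads, and Ccr6 was 3.49-fold lower (2.77 to 4.44). Ccr7 was 1.14-fold higher (1.06 to 1.23), but with centring its log2 ratio was -0.26, the side of LN on which it lay in lean adipose.

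In 10-month Foxp3Cre adipose over LN, set across tables in CPM, 7 receptor genes were measured, of which 5 were higher, 1 was lower and 1 was within 2-fold. The background here was 34.3% higher, 29.8% lower and 64.1% either way, with a median log2 ratio of 0.096. Ccr1, at 463 CPM against no reads, was at least 1498-fold higher in 10-month Foxp3Cre. Ccr3 was 33.0-fold higher (27.2 to 40.4) and Ccr4 was 31.8-fold higher (19.9 to 54.1). Next came Ccr2, which was 13.3-fold higher (12.0 to 14.6), and Ccr8, which was 7.39-fold higher (6.85 to 7.97). Ccr6 was 2.85-fold lower (2.32 to 3.51). Ccr7 was 1.56-fold higher (1.45 to 1.66). Ccr1, Ccr2, Ccr3 and Ccr4 were thus more than 2-fold higher and Ccr6 more than 2-fold lower than in LN in all 3 adipose libraries of Foxp3Cre mice without the floxed gene. These comparisons share the LN library, so a low or high value in it enters all of them.

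**Figure D3:**
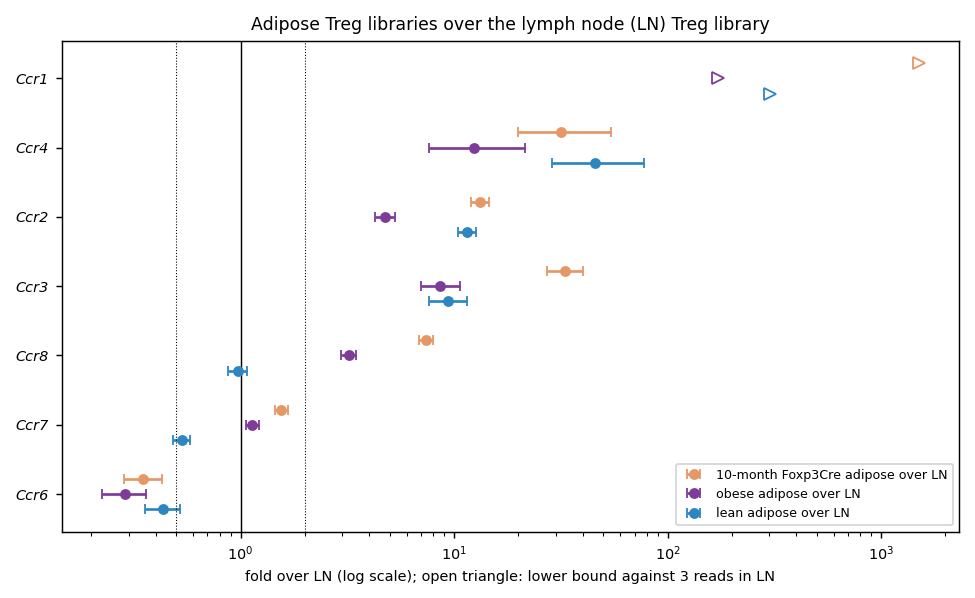
Fold over LN (horizontal axis, log scale) of 7 CC receptor genes in 10-month Foxp3Cre, obese and lean adipose, with 95% counting intervals, a solid line at 1 and dotted lines at 2-fold. Ccr1 is drawn as open triangles at its lower bounds (1498, 172 and 301), Ccr6 lies left of the dotted line in all 3 libraries, and Ccr7 and Ccr8 spread over both sides of 1 or beyond 2-fold depending on the library.

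Obese over lean adipose, which asks how obesity at 4 months relates to these genes, had 8 receptor genes measured, of which 3 were higher, 2 were lower and 3 were within 2-fold. The background was 34% higher, 18.6% lower and 52.6% either way, with a median log2 ratio of 0.20. Ccr8 was at 291 CPM in obese and 86.1 CPM in lean adipose, 3.38-fold higher in obese adipose (3.11 to 3.68). Ccr7 was 2.19-fold higher (2.001 to 2.40), and centring on the median of all genes brought its log2 ratio to 0.92, under the threshold. Ccr9 was 10.3-fold higher (5.14 to 23.2), from 81 and 9 reads. Ccr4 was 3.59-fold lower in obese adipose (3.06 to 4.22) and Ccr2 2.38-fold lower (2.25 to 2.51). Ccr1 was 1.72-fold lower (1.53 to 1.93), Ccr6 1.48-fold lower (1.14 to 1.94) and Ccr3 1.06-fold lower with an interval that held 1 (0.968 to 1.17). Receptor genes differed in both directions between obese and lean adipose. Their counts, 3 and 2 of 8, were near the shares of all genes and say little about this family.

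Between 10-month Foxp3Cre and 4-month lean adipose, 8 receptor genes were measured, of which 4 were higher, 1 was lower and 3 were within 2-fold. The background was 28.5% higher, 32.7% lower and 61.3% either way, with a median log2 ratio of -0.17. Ccr8 was 6.91-fold higher at 10 months (6.40 to 7.47), Ccr1 4.51-fold higher (4.19 to 4.85), Ccr3 3.21-fold higher (2.98 to 3.44) and Ccr7 2.66-fold higher (2.44 to 2.89). Ccr2 was at 610 and 584 CPM, a fold of 1.04 (1.01 to 1.08). Ccr4 was 1.58-fold lower at 10 months (1.42 to 1.76) and Ccr6 1.36-fold lower (1.07 to 1.73). The one gene called lower was Ccr9, with no value at 10 months and 9 reads in lean adipose. Age, the Ddx3y, Xist and Gapdh difference and the table cannot be told apart in this comparison.

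The library labelled Med23 KO, set against 10-month Foxp3Cre in the same table, asks which receptor genes differ when Med23 is targeted in Tregs. Of 7 receptor genes measured, 0 were higher, 5 were lower and 2 were within 2-fold. The background was 28.6% higher, 34.9% lower and 63.5% either way, with a median log2 ratio of -0.15. In CPM 4481 genes were higher and 4222 lower, against 3877 and 4730 as reported, so that the more frequent direction turned with the scaling. Ccr1 was listed at 0 (1 read) in the library labelled Med23 KO and at 514 scaled counts (4473 reads) in 10-month Foxp3Cre, 2629-fold lower with a counting interval of 472 to 103875. Ccr3 was at 2.93 and 404 scaled counts, 138-fold lower (83.4 to 246). Ccr2 was at 18.2 and 677 scaled counts, 37.2-fold lower (30.3 to 46.2). All 3 receptors first known from myeloid cells were therefore near their LN level or below it in the library labelled Med23 KO.

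Ccr6 had no reads in the library labelled Med23 KO, against 129 in 10-month Foxp3Cre, at least 25.3-fold lower. Ccr8 had 111 scaled counts where Med23 KO was the label and 660 in 10-month Foxp3Cre, 5.97-fold lower (5.47 to 6.52). Ccr4 was at 50.1 and 65.6 scaled counts, 1.31-fold lower (1.13 to 1.52). Ccr7 was at 299.8 and 254 scaled counts, 1.18-fold higher (1.104 to 1.26), and 1.46-fold higher in CPM. Of the 5 lower genes Ccr8 differed least, and Ccr4 and Ccr7 were the members within 2-fold.

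Ccr1, Ccr3 and Ccr2 neighbour each other in RefSeq in the order Ccr9, Fyco1, Cxcr6, Xcr1, Ccr1, Ccr1l1, Ccr3 and Ccr2. Their neighbours were looked at after the values of the receptors were seen. Cxcr6, a receptor of tissue-resident T cells, had 72.0 scaled counts where Med23 KO was the label and 2007 in 10-month Foxp3Cre, 27.9-fold lower (25.1 to 31.0). Fyco1, an adaptor of autophagosome transport, was at 68.7 and 68.4 scaled counts, a fold of 1.004. Xcr1, the Xcl1 receptor of cross-presenting dendritic cells, was at 10.8 and 5.87 scaled counts, a fold of 1.83, and Ccr1l1 had no value. The stretch thus held 4 genes far lower in the library labelled Med23 KO, where 34.9% of all genes were at least 2-fold lower. Among them lay Xcr1, which was higher there, from 55 reads against 51. Next to Cxcr6 lay Fyco1, whose fold was close to 1, and Ccr9 and Ccr1l1 had no value.

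**Figure D4:**
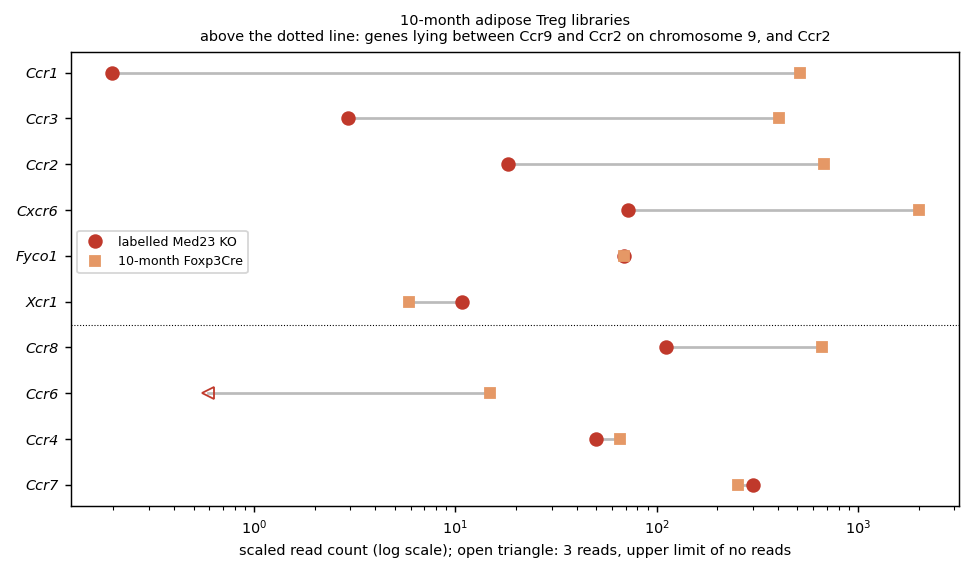
Scaled read counts (horizontal axis, log scale) of receptor genes and their chromosome 9 neighbours in the library labelled Med23 KO (circles, or an open triangle at 3 reads where no reads were found) and in 10-month Foxp3Cre adipose (squares). Ccr1, Ccr3, Ccr2 and Cxcr6 are far apart between the libraries, while Fyco1, Ccr4 and Ccr7 lie close together.

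The receptors' ligand genes were also read in these libraries, as a list of 20 CC ligand genes. In lean adipose over LN 13 of 15 measured were higher and 2 lower, against 37.6% and 32.1% of all genes. The median log2 ratio there was 4.98, against 0.14 over all genes. In obese adipose over LN 12 of 14 were higher and 1 lower (median 5.64, against 0.44), where 41.8% of all genes were higher and 23.7% lower. Ccl7, a Ccr2 ligand, was at 1003 scaled counts in lean adipose and 0 in LN, and Ccl8 was at 1079 in obese adipose and 0 in LN. In 10-month Foxp3Cre over LN 9 of 14 were higher and 2 lower (median 2.18), against 34.3% and 29.8% of all genes. In 10-month Foxp3Cre over lean adipose 1 of 16 was higher and 14 were lower (median -2.90), against 28.5% and 32.7%. Ccl7 was at 27.5 CPM in 10-month Foxp3Cre and 1055 in lean adipose, so that its level was lower at 10 months while that of its receptor Ccr2 was within 2-fold. In obese over lean adipose 7 of 16 were higher and 2 lower (median 0.30), where 34% of all genes were higher and 18.6% lower. In the library labelled Med23 KO over 10-month Foxp3Cre 1 of 14 was higher and 11 were lower, against 28.6% and 34.9% of all genes. The median there was -2.58, against -0.15 over all genes, and Ccl6 was at 0 and 43.5 scaled counts.

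Many CC ligands are made by macrophages, and markers of other cells were present. The 12 macrophage and dendritic cell markers summed to 303 CPM in the library labelled Med23 KO, 1073 in 10-month Foxp3Cre, 8757 in obese adipose, 1670 in lean adipose and 319 in LN, with 7, 10, 12, 10 and 2 of the 12 above 0 in that order. In the library labelled Med23 KO, where Ccr1 had 1 read, Cd74 was at 195 CPM, Lyz2 at 53.3, C1qb at 25.0 and Cd14 at 17.6. C1qc, Itgax and Adgre1 were at 6.75, 3.26 and 2.39 CPM there. The markers Csf1r, Cd68, C1qa, Mrc1 and Fcgr1 were at 0 or had no value. In LN, where Ccr1 had no reads, Cd74 was at 312 CPM and Lyz2 at 7.01, and the other markers were at 0 or had no value. In obese over lean adipose all 12 markers were higher (median log2 ratio 2.46), where 34% of all genes were higher. Ccr1 and Ccr2 were 1.72-fold and 2.38-fold lower there, and the interval of Ccr3 held 1. In 10-month Foxp3Cre over lean adipose 6 of 10 measured markers were lower and 0 were higher (median -1.38), against 32.7% and 28.5% of all genes. Ccr1 and Ccr3 were higher there, and Ccr2 was within 2-fold. In the library labelled Med23 KO over 10-month Foxp3Cre 10 of 11 markers were lower and 1 was higher (median -2.68), against 34.9% and 28.6% of all genes. The markers' part in the receptor and ligand values was not tested in any comparison.

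Of 10 eosinophil, mast cell and basophil markers, which bear on Ccr3, Siglecf, Epx, Il5ra, Mcpt4, Fcer1a, Ms4a2 and Mcpt8 were at 0 or had no value in all 5 libraries. Their summed level was 0 CPM in the libraries labelled Med23 KO and lean adipose, 10.3 in 10-month Foxp3Cre, 7.34 in obese adipose and 8.15 in LN. Ccr3 was at 114 CPM in lean adipose, where all 10 were at 0 or had no value. Scaled counts under 1 are listed as 0, and the part of these cells in the Ccr3 values was not tested. For Ccr6, the 6 B and plasma cell markers summed to 622, 1002, 126, 35.7 and 99.7 CPM in the same order of libraries from Med23 KO to LN, most of it the antibody J chain gene Jchain. Cd79b, a B cell receptor subunit, was at 0 CPM in the libraries labelled Med23 KO and lean adipose, 7.77 in 10-month Foxp3Cre, 22.5 in obese adipose and 82.3 in LN, and its part in the higher Ccr6 of LN was not tested. The Treg and CD4 T cell markers summed to between 6613 CPM in lean adipose and 8924 CPM in 10-month Foxp3Cre, with all 8 above 0 in every library. Monocyte markers summed to 24.6 to 98.2 CPM, plasmacytoid dendritic cell markers to 28.3 to 91.2 CPM and CD8 T and NK cell markers to 5.27 to 60.1 CPM. Of the neutrophil markers, 1 was above 0, at 15.5 CPM in the library labelled Med23 KO. Fibroblast and mesothelial markers summed to 0, 48.0, 10.4 and 915 CPM in the libraries labelled Med23 KO, 10-month Foxp3Cre, obese and lean adipose, and to 0 in LN.

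**Figure D5:**
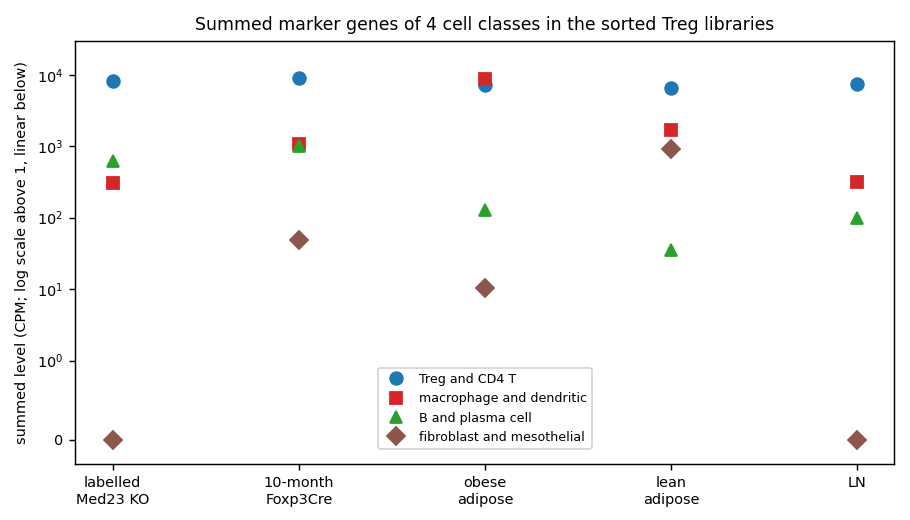
Summed level in CPM (vertical axis, log scale above 1 and linear below it) of marker genes of 4 cell classes in each of the 5 libraries. The Treg and CD4 T cell sum stays between 6613 and 8924, while the macrophage and dendritic cell sum runs between 303 (the library labelled Med23 KO) and 8757 (obese adipose). Cd74 alone makes up 195 of the 303, and 312 of the 319 in LN.

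Signalling genes downstream of the receptors were counted next. Of 26 genes for G proteins, arrestins, kinases and adhesion adaptors, 5 were higher and 9 lower in lean adipose over LN (median log2 ratio -0.16), where 37.6% of all genes were higher and 32.1% lower. In obese adipose over LN 4 were higher and 4 lower (median 0.26), against 41.8% and 23.7% of all genes. Gnai2, the Gi subunit that chemokine receptors use most, was at 92.6 scaled counts in obese adipose and 354 in LN. Rasgrp2, the exchange factor that activates Rap1 for integrin adhesion, was listed at 0 in lean and obese adipose, against 45.2 and 45.6 scaled counts for LN in the 2 tables. In 10-month Foxp3Cre over LN 5 were higher and 5 lower (median -0.17), against 34.3% and 29.8% of all genes. Rgs2, a regulator that shortens G protein signals, was at 3308 CPM in 10-month Foxp3Cre and 954 in LN. In the library labelled Med23 KO over 10-month Foxp3Cre 2 were higher and 7 lower (median -0.16), against 28.6% and 34.9% of all genes. Pik3cg, the catalytic subunit of PI3K-gamma, had 0 scaled counts where Med23 KO was the label and 39.7 in 10-month Foxp3Cre. In obese over lean adipose 5 of 25 were higher and 2 lower (median 0.30), against 34% and 18.6% of all genes. In 10-month Foxp3Cre over lean adipose 6 of 25 were higher and 3 lower (median 0.09), against 28.5% and 32.7%.

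Among 12 transcription factor genes tied to these receptors in T cells, 4 were higher and 3 lower in lean adipose over LN, 4 higher and 2 lower in obese adipose over LN, and 4 higher and 4 lower in 10-month Foxp3Cre over LN. Medians of the log2 ratio were 0.14, -0.04 and 0.08. Of all genes, 37.6%, 41.8% and 34.3% were higher and 32.1%, 23.7% and 29.8% lower in these comparisons, and the factors' counts were of that order. Irf4, a driver of effector Tregs, was at 17.6 CPM in the library labelled Med23 KO, 223 in 10-month Foxp3Cre, 53.4 in obese adipose, 285 in lean adipose and 7.43 in LN. Its 2 lowest levels were in the same libraries as those of Ccr2. Gata3, the Th2 factor, was at 347, 506, 291 and 511 CPM in the libraries labelled Med23 KO, 10-month Foxp3Cre, obese and lean adipose and at 41.4 CPM in LN. Tcf7, a factor of naive and resting T cells, was at 89.2 CPM in the library labelled Med23 KO, 9.33 in 10-month Foxp3Cre, 47.4 in obese adipose, 25.1 in lean adipose and 146 in LN. Of 11 factors measured in the library labelled Med23 KO over 10-month Foxp3Cre, 3 were higher and 3 lower (median 0.34), against 28.6% and 34.9% of all genes, with Batf at 15.1 and 216 scaled counts. In obese over lean adipose 1 of 11 was higher and 2 lower (median -0.09), against 34% and 18.6% of all genes. In 10-month Foxp3Cre over lean adipose 0 of 11 were higher and 2 lower (median -0.25), against 28.5% and 32.7%.

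Other trafficking receptors were counted as a list of 14. In lean adipose over LN 2 of 13 were higher and 3 lower (median -0.32), against 37.6% and 32.1% of all genes. In obese adipose over LN 3 of 14 were higher and 2 lower (median 0.05), against 41.8% and 23.7%, and in 10-month Foxp3Cre over LN 5 of 14 were higher and 5 lower (median 0.08), against 34.3% and 29.8%. In the library labelled Med23 KO over 10-month Foxp3Cre 4 of 14 were higher and 5 lower (median -0.04), against 28.6% and 34.9% of all genes, with Gpr183, an oxysterol receptor that positions lymphocytes, at 83.9 and 442 scaled counts. Obese over lean adipose had 4 higher and 0 lower (median 0.21), where 34% of all genes were higher and 18.6% lower, and 10-month Foxp3Cre over lean adipose had 5 higher and 2 lower (median 0.20), where 28.5% were higher and 32.7% lower. Of 5 atypical and related receptor genes, Ccrl2, which holds ligands at the cell surface without signalling, was at 25.5, 66.8, 239 and 36.2 CPM in the libraries labelled Med23 KO, 10-month Foxp3Cre, obese and lean adipose, and at 24.7 CPM in LN. Ackr4, a scavenger of Ccl19, Ccl21 and Ccl25, was at 0 or with no value in the adipose libraries, against 2.89 CPM in LN. In the list of 5, the counts of higher and lower genes among those measured were 2 and 1 of 4 in lean adipose over LN. They were 1 and 1 of 2 in obese adipose over LN and in 10-month Foxp3Cre over LN. Obese over lean adipose had 1 and 2 of 3, and 10-month Foxp3Cre over lean adipose had 0 and 2 of 3. The library labelled Med23 KO over 10-month Foxp3Cre had 0 and 1 of 1. The shares of all genes are those given above for the trafficking receptors. Past 2-fold either way were 52.6% (obese over lean adipose) to 69.7% (lean adipose over LN) of all genes, so counts out of so few genes say little about this list.

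The genes whose pattern over the 5 libraries was nearest to each receptor gene were ranked by the root mean square difference of mean-centred log2(CPM + 1), among 8180 candidate genes. With 5 libraries and so many genes, near matches are a description. Nearest to Ccr1 was Anxa1, at a distance of 0.33, with 4.13, 2065, 322 and 399 CPM in the libraries labelled Med23 KO, 10-month Foxp3Cre, obese and lean adipose and 6.70 CPM in LN. Pparg, the nuclear receptor known from visceral fat Tregs, came next at 0.55, with 0, 212, 31.5 and 42.0 CPM in the same adipose libraries and 0 in LN, and Ceacam12 followed at 0.72. For Ccr2 they were Dhx40 (0.16), Wdr41 (0.35) and Il10 (0.35), the gene of an inhibitory cytokine of Tregs, at 65.7, 1746, 587 and 1058 CPM in these adipose libraries and 78.1 CPM in LN. Ccr3 had Nupl1 (0.36), Fastkd3 (0.47) and Ranbp6 (0.48).

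Ccr4 was nearest to Rab11fip1 (0.20), Srebf1 (0.23) and Tc2n (0.29). Ccr6 was nearest to Tmem216 (0.12), Mthfd2l (0.13) and Vhl (0.14), and Ccr7 had Ica1 (0.11) and Plekha8 (0.13) among its 3 nearest. Ccr8 had Sacm1l (0.32), Uhrf1 (0.35) and Srd5a3 (0.35). The longest nearest distance was that of Ccr3. Ranked by Pearson's correlation instead, 1 of the 3 genes was kept for each of Ccr1, Ccr2, Ccr3, Ccr4 and Ccr7, and 2 of 3 for Ccr6 and Ccr8. Pparg was kept for Ccr1, Dhx40 for Ccr2, Nupl1 for Ccr3 and Rab11fip1 for Ccr4. Anxa1 and Il10 were not kept.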

How the data were processed

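RNA of sorted Tregs was extracted with Trizol and libraries were made with an Illumina TruSeq kit for a HiSeq2000 instrument, per the labels' protocols. Bowtie2 2.0.6 and TopHat2 2.0.9, with build mm8, are listed in the submitters' processing notes. How reads were counted, on which annotation and strand, and how counts were scaled is not given in these sources. Values of overlapping, antisense or near-identical genes are therefore uncertain.

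The authors deposited 3 tables of 2 libraries each, with a signal per gene that is a read count scaled per library, in which values under 1 are listed as 0. They also deposited a log2 fold change, used here only to recover the reads behind a value listed at 0, where 0.5 stands for no reads. From the values, 100% of nonzero scaled counts are whole multiples, to within 0.01 read, of 1 step per library, and the smallest listed values stand for 6 to 10 reads. Because low values were removed and each group has 1 library, no count model was fitted and no test was made.

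Symbols came from GENCODE M21 for 49326 of 49927 IDs, and promoters from RefSeq. Where IDs shared a symbol, the ID with the larger sum was kept. Folds within a table use the authors' scaled counts; across tables each library was rescaled to CPM, which multiplies the within-table folds by 1.103 (lean over LN), 1.13 (obese over LN) and 1.23 (library labelled Med23 KO over 10-month Foxp3Cre). A gene with no value in a table was counted as without reads across tables: of 4627 genes with no value in 1 of the 4-month tables, 0 had LN above 0 in the other. Calls use log2((value + 1)/(value + 1)), so ratios of low genes come out too small. Printed folds use no pseudocount. Fold intervals are exact 95% Clopper-Pearson intervals given the summed reads, level intervals are exact Poisson, and bounds use 3 reads per library. They cover counting error only, as no molecular identifiers that would mark PCR copies are named in the labels.

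The receptor genes, the gene lists, the comparisons and the rule for named genes were chosen with earlier results of these data known. Named genes are the 9 receptors, Med23, Foxp3, the 3 genes most like each receptor at 20 CPM or more, and up to 3 genes of each pathway list per comparison with the largest ratios, plus marker genes and chromosome 9 neighbours. Some genes that this rule picks are not reported here. Gapdh, Ddx3y and Xist were named after their values were seen. Calculations were done in Python 3.11.15 with numpy 2.4.6, scipy 1.17.1 and pandas 2.3.3, drawings with matplotlib 3.10.9, and the code was tested on simulated data.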

Additional observations from a re-analysis of the deposited data

Results flagged for a closer look

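Folds over LN of Ccr7 and Ccr8 differed in sign between adipose libraries, in values that in part lie close to LN. The log2 fold of Ccr7 was -0.92 in lean adipose over LN, against 0.19 in obese adipose over LN and 0.64 in 10-month Foxp3Cre adipose over LN. With ratios centred on the median of all genes, the value in obese adipose turned negative, to -0.26. That of Ccr8 was -0.045 in lean adipose over LN, against 1.68 in obese adipose over LN and 2.89 in 10-month Foxp3Cre adipose over LN, and in lean adipose its counting interval held no difference from LN and its side changed in CPM. These differences between comparisons rest on 1 library a group and on the LN library shared by all of them, and they were not tested.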

How the results depend on the processing

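No paired analysis was possible because each group has 1 library, and for the same reason no library could be left out. Of 426 values for single receptors under the alternatives, 409 kept their side of the 2-fold threshold, 5 passed it newly and 12 no longer passed it. The sign changed in 2 of the 426, neither past 2-fold: the log2 ratio of Ccr8 in lean adipose over LN was 0.096 in CPM (-0.044 as reported), and that of Ccr7 in obese adipose over LN was -0.26 with ratios centred on the median of all genes (0.18 as reported). The receptor genes higher in lean adipose over LN numbered 4 in place of 5 with a pseudocount of 5, a minimum of 5, a 3-fold threshold or centring, as Ccr9 was lost. The number of receptor genes lower in lean adipose over LN, 1 as reported, was 2 at a 1.5-fold threshold and with ratios centred on the median of all genes, and 0 at 3-fold. At 3-fold it was 1 in place of 2 in obese over lean adipose, and 0 in place of 1 in 10-month Foxp3Cre over LN. In 10-month Foxp3Cre over lean adipose it was 1 as reported, 2 at 1.5-fold, and 0 with a pseudocount of 5, a minimum of 5, 3-fold, centring or only genes with a value in both tables, the last chosen after seeing the data. With the longest coding transcript as length, also chosen after seeing the data, the receptor gene with the highest level per length was the same in each of the 5 libraries. Counts over all genes moved more. In CPM the library labelled Med23 KO over 10-month Foxp3Cre had 4481 genes higher and 4222 lower, against 3877 and 4730 as reported, so the more frequent direction turned. Higher genes numbered 3370 with a pseudocount of 5 and 3750 with a minimum of 5 in obese over LN (6144 as reported), 2515 with a pseudocount of 5 and 2527 at 3-fold in the library labelled Med23 KO over 10-month Foxp3Cre (3877), 2466 and 2877 with a pseudocount or minimum of 5 in obese over lean (5034), 2793 with a pseudocount of 5 in 10-month Foxp3Cre over LN (4529), and 2277 and 2577 with a pseudocount or minimum of 5 in 10-month Foxp3Cre over lean (3958). Lower genes numbered 2009 at 3-fold in obese over LN (3484), 3149 with a pseudocount of 5 in the library labelled Med23 KO over 10-month Foxp3Cre (4730), 1670 with a pseudocount of 5 and 1565 at 3-fold in obese over lean (2760), and 2512 at 3-fold in 10-month Foxp3Cre over LN (3926). Fewer genes pass a higher threshold, minimum or pseudocount by construction. Depth limits Ccr9 in lean adipose (9 reads), Ccr4 in LN (18 reads) and Ccr1 in the library labelled Med23 KO (1 read) most.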
